A study of Mus musculus with 9 samples.

Results

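The samples described here are the mammary glands of the 4 wild-type (WT) dams of the series, chosen by their genotype label and titled WT 1 to WT 4, out of 9 samples in all. They are C57BL/7 mice, as the strain is spelled in the labels, without the human NAG-1 transgene that the other samples carry, and no genotype is compared in the text. Mammary gland number 4 was taken on lactation day 2 (L2) after the birth of the fourth litter, snap frozen and pulverized. RNA extracted with TRIzol (500 ng) was made into Cy3-labeled cRNA, and each dam was measured on 1 array of the Agilent whole mouse genome design. WT 1 lay on slide 1 and WT 2, WT 3 and WT 4 lay on slide 3, so that what sets WT 1 apart as a dam and as an array of another slide cannot be told apart. Each gland is a whole tissue of many cell types, in which fewer cells of a type and less RNA per cell cannot be told apart.

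In early lactation the secretory cells of the mammary alveoli make the bulk of milk. Prolactin acts through its receptor, the kinase Jak2 and the transcription factor Stat5 to keep milk protein genes active. The caseins form the micelles that carry calcium, the whey proteins stay in solution, and the fat leaves the cell as droplets wrapped in the apical membrane. Myoepithelial cells around each alveolus contract in response to oxytocin. In the mouse, gland number 4 lies in a pad of fat cells beneath the skin and encloses the inguinal lymph node, so a whole gland can also hold adipocytes, lymphocytes and adjoining muscle.

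The values rest on probes of 60 bases. For 5 of the 20 genes of casein and other secreted milk proteins, the probe spans an exon junction of the message, as its target covers more than its own length on the mm7 genome, and these 5 probes are shown as they read the spliced message. Csn1s2b and Csn3 encode caseins, Wap the whey acidic protein, Lalba the alpha-lactalbumin that switches galactosyltransferase to lactose synthesis, and Trf the iron carrier transferrin. Their targets on mm7 are chr5:87751878-87755729 on the plus strand, chr5:87862437-87864389 on the plus strand, chr11:6588821-6589195 on the minus strand, chr15:98465449-98466288 on the minus strand and chr9:102929342-102929957 on the minus strand, in that order.
Csn1s2b: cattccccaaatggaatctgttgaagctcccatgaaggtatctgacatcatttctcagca
Csn3: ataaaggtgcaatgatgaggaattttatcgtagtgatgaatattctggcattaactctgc
Wap: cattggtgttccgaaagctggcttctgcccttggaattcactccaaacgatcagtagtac
Lalba: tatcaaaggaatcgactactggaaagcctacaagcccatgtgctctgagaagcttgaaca
Trf: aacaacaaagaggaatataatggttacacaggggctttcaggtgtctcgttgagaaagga

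Most of the probes on the array gave a signal in the WT gland. The share of the 41174 probes well above background, by the flag of the image software, was 68.5% in WT 1, 75.6% in WT 2, 69.5% in WT 3 and 70.9% in WT 4, with a mean of 71.1% ± 3.1 (SD, n = 4). On all 4 arrays 26671 probes (64.8%) were well above background, and 8834 probes (21.5%) were so on none. The other probes were well above background on 3 arrays (1633 probes), 2 arrays (1527 probes) or 1 array (2509 probes). Signals are given below as scaled signal, the deposited intensity divided by the 75th percentile of its array, so that a value of 1 lies at the upper quartile of all features. The percentile was 594.8 in WT 1, 1185 in WT 2, 852.3 in WT 3 and 840.1 in WT 4.

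A rank of 1 is the brightest of the 41174 probes by the mean log2 scaled signal of the 4 dams. Each probe binds its target with its own efficiency, so the ranks order probe signals and not amounts of transcript. The signal was concentrated in few probes. The 100 brightest probes held 27.9% of the summed signal in WT 1, 22.7% in WT 2, 24.9% in WT 3 and 25.1% in WT 4, a mean of 24.9% ± 2.2 (SD, n = 4). The 1000 brightest held 64.9% ± 2.7 (SD, n = 4). The dams agreed on which probes these were, as 80 probes were among the 100 brightest of every array and 849 among the 1000 brightest of every array.

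**Figure D1:**
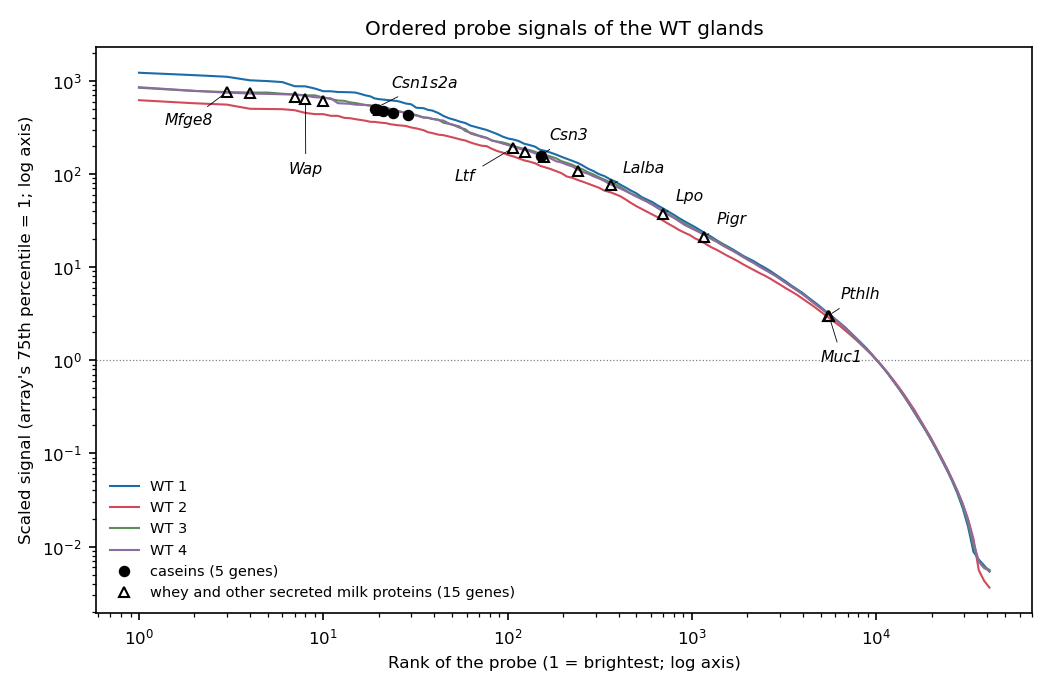
Scaled signal (log axis, the 75th percentile of each array set to 1) against the rank of the probe within each array (log axis), with 1 line for each WT dam; points give the geometric mean signal of the brightest probe of each casein gene (filled circles) and each whey or other secreted milk protein gene (triangles). At the brightest ranks the lines of WT 1 and WT 2 lie above and below the others, and 4 of the 5 caseins sit between ranks 19 and 29.

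Among the 20 brightest probes, 12 belonged to 10 genes of the milk lists and 4 to ribosomal proteins. The milk genes were Mfge8, a secreted protein of the milk fat globule surface (rank 3), Wfdc18, a small protein of the whey acidic protein family named Expi on the array (ranks 4 and 15), Spp1, osteopontin (rank 7), Wap (ranks 8 and 13), Fasn, the fatty acid synthase (rank 9), Trf (rank 10), Cidea, a protein of the lipid droplet surface (rank 11), Fabp3, a carrier of fatty acids (rank 16), Csn1s2a (rank 19) and Glycam1, a mucin-like milk protein (rank 20). The ribosomal probes were those of Rplp1 (rank 12), Rps18 (rank 14), Rpl7a (rank 17) and Rps23 (rank 18). Down to rank 50 came Csn1s1 (rank 21), Csn2 (rank 24), the L-amino acid oxidase of milk Lao1 (rank 28), Csn1s2b (rank 29) and Plin2, the main coat protein of milk lipid droplets (rank 31). The acute phase proteins Saa2 (rank 35) and Saa1 (rank 36), the growth factor precursor Grn (rank 34) and the respiratory chain subunit Cox6a1 (rank 23) were also there. The other ribosomal probes in that range included those of Rpl37a, Rplp0, Rpl41, Rps14, Rps16, Rps28 (2 probes), Rps2, Rps20, Rps12, Fau, Rpl38, Rack1, Rpl32 and Rpl11. Of the 171 ribosomal protein probes of the array, 93 (54.4%) lay in the brightest 1% of probes, with a median rank of 331, and together they held 14.8% ± 0.8 (SD, n = 4) of the summed signal, against 4.6% ± 0.6 (SD, n = 4) for the brightest probes of the 20 casein and other secreted milk protein genes. The first share sums many more probes than the second.

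Among the 5 brightest probes, 3 carry the names of genes not known for milk secretion. The probe named Lars2, a mitochondrial leucyl-tRNA synthetase, gave the brightest signal on every array, the probe named Pigt ranked 2 and the probe named Ptprz1 ranked 5. All 3, and the Mfge8 probe, were saturated on all 4 arrays, so their signals are lower bounds. The probes NAP046356-1 and Spp1 were saturated on 2 arrays each and that of Wap on 1 array. The order of the probes at ranks 1 to 8, that of Wfdc18 among them, is therefore not determined. The other Pigt probe ranked 20583 and the other 3 Ptprz1 probes ranked 20094 to 41075, so probes of these names did not give like signals, and the signals are not read here as levels of those genes. The bright Pigt probe lies on chromosome 17 of mm7 while RefSeq places the gene on chromosome 2, and of 22725 probes named by accession with a placed chromosome 24 differed in this way. The first 30 bases of the probes are shown as they identify the features.
Lars2, mm7 chr9:123178230-123178289: acgtcgctttttgatccttcgatgtcggct
Pigt, mm7 chr17:38065479-38065538: ccccctcgatgctcttagctgagtgtcccg
Ptprz1, mm7 chr6:22942347-22942406: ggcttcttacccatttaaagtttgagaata
The probe NAP046356-1, to which the array gives no gene, ranked 6. Without a gene symbol were also the probes at ranks 30, 42 and 46, ENSMUST00000001667, ENSMUST00000082405 and NAP102738-1. Of these, the array describes ENSMUST00000082405 as the message of cytochrome c oxidase subunit II.

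The genes of the 5 mouse caseins were among the brightest of the gland in every dam. The scaled signal of Csn2, beta-casein, was 618 in WT 1, 330 in WT 2, 474 in WT 3 and 453 in WT 4. Csn1s1, an alpha-casein, gave 608, 356, 488 and 490 in the same order. WT 1 was highest and WT 2 lowest for both, and their ranks within the arrays stayed between 21 and 28. Csn1s2a gave 699 in WT 1, 364 in WT 2, 519 in WT 3 and 493 in WT 4, and ranked between 17 and 23. Csn1s2b was less uniform, with 637 in WT 1, 351 in WT 2, 339 in WT 3 and 434 in WT 4, and ranks from 20 to 50. The probe matched to Csn3, kappa-casein, was dimmer at 175, 118, 174 and 160, with ranks of 140 to 164. A probe for the transcript ENSMUST00000001667 lies at chr5:87869188-87869247 of mm7, just beyond the Csn3 probe and on the same strand. It ranked 30, with 566, 309, 431 and 411, and the array describes it as a transcript of the lactating mammary gland. Whether it reads the Csn3 message was not tested, so the dimmer signal is that of 1 probe and not of the gene.

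The spread of the caseins between the dams depended on how the arrays were scaled. With the 75th percentile, the highest over the lowest dam was 1.71 for Csn1s1, 1.87 for Csn2, 1.92 for Csn1s2a, 1.88 for Csn1s2b and 1.49 for Csn3. After quantile normalization over the 4 arrays, which gives every array the same set of values, the same ratios were 1.07, 1.08, 1.11, 1.54 and 1.11. The median SD between dams over the 5 genes was 0.37 on the log2 scale with the first and 0.07 with the second. The order WT 1 highest and WT 2 lowest held for most bright probes alike, as among the 100 brightest probes WT 1 was highest for 92 and WT 2 lowest for 96, and WT 1 had the lowest and WT 2 the highest 75th percentile. Ranks within each array, which no scaling of a whole array changes, are therefore given for the caseins and some of the other secreted milk proteins.

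The casein probes fall within 245 kb of chromosome 5 (chr5:87619071-87864389 on mm7). Most other probes between and beside them were dim. Odam, a gene expressed in tooth-forming cells that lies between Csn1s2b and Csn3, had a scaled signal of 0.201, 0.148, 0.121 and 0.142 in WT 1 to WT 4 and ranked 19468. Prr27, which lies in the same stretch, was not well above background on any array. Beyond Csn3 the probes of 2310003L06Rik, Cabs1 and the salivary gene Smr3a were not well above background on any array either. Upstream of Csn1s1, a probe for the transcript AK052843 ranked 1209, with signals of 27.6, 15.2, 20.6 and 19.0. The second Csn1s2b probe (chr5:87754043-87754102) ranked 8058 with signals of 2.26, 2.07, 1.02 and 1.24, and the brightest probe of a gene is the one used for the gene lists.

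Stat5 binds DNA at sites of the form TTCNNNGAA, and promoters of milk protein genes are printed as their probes are among the brightest. RefSeq sequences (GRCm38.p6) of the 250 bases before the gene start held this motif, which reads the same on both strands, in 7.02% of 32851 promoters. Of 15 of the 20 casein and other secreted milk protein genes, 3 had it, with 1 match each. The other 5 genes are Csn1s2b, Csn3, Folr1, Muc15 and Trf. The match is in capitals.
Csn1s1, chr5:87665958-87666207, plus strand: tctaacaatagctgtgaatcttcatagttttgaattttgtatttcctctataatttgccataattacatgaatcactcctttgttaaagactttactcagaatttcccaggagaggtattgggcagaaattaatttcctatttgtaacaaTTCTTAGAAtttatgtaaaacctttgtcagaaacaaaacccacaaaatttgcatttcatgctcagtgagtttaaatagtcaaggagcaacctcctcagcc
Csn2, chr5:87699426-87699675, minus strand: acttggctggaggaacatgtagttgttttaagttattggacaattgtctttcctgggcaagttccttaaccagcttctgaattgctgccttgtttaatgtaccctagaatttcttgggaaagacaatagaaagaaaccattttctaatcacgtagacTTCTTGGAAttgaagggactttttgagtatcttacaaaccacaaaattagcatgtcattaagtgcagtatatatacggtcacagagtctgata
Glycam1, chr15:103565082-103565331, minus strand: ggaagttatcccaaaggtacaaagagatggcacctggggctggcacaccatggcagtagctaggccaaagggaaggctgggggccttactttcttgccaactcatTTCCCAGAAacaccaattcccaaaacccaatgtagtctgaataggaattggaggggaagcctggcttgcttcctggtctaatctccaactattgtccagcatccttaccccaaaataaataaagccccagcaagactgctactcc
The match begins 100 bases before the start in Csn1s1, 93 in Csn2 and 145 in Glycam1. The letters of the motif are not in this window of Csn1s2a, Wap, Lalba, Ltf, Mfge8, Spp1, Wfdc18, Cel, Lpo, Muc1, Pigr or Pthlh, which says nothing of the factor itself. A match describes letters and is not a shown binding site.

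All 15 genes of the list of whey and other secreted milk proteins were well above background on the 4 arrays, and 11 of them were in the brightest 1% of probes. Their median rank was 125. Wap had a scaled signal of 874 in WT 1, 439 in WT 2, 663 in WT 3 and 650 in WT 4. Trf had 755, 422, 638 and 667, and Glycam1 had 617, 336, 515 and 534. For these 3 genes the ranks within the arrays stayed between 8 and 24. Wfdc18 (995, 502, 759 and 782) and Spp1 (876, 484, 716 and 693) held ranks of 2 to 5 and 7 to 8. Mfge8, saturated throughout, had signals of 1107, 556, 750 and 725.

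Further down the list, Ltf, Cel and Muc15 had larger SDs over the 4 dams than the casein genes under both scalings, which rested on WT 2. Ltf, the iron-binding lactoferrin, had a scaled signal of 215 in WT 1, 89.0 in WT 2, 229 in WT 3 and 301 in WT 4, an SD of 0.76 on the log2 scale and ranks from 58 to 231. Cel, the bile salt-stimulated lipase, gave 160, 86.7, 213 and 188. The membrane mucin gene Muc15 gave 119, 63.0, 137 and 130. Without WT 2 the SDs were 0.26 for Ltf, 0.21 for Cel and 0.10 for Muc15, within the range of the 5 caseins, which ran from 0.07 for Csn3 to 0.46 for Csn1s2b. In all 3 the WT 2 gland was lowest, also after quantile normalization for Ltf, where the highest over the lowest dam was 2.58. Folr1, a folate receptor, gave 239, 119, 176 and 181, and Lpo, lactoperoxidase, 50.6, 29.0, 36.9 and 35.9. Lalba ranked 362, with 87.5, 65.7, 69.5 and 84.1, and an SD of 0.20. Pigr, which carries immunoglobulin A into milk, ranked 1161, with 28.5, 16.8, 23.1 and 18.1. Lowest were Pthlh, the parathyroid hormone-related protein, at rank 5502 with 2.82, 2.02, 4.04 and 3.57, and Muc1 at rank 5560 with 3.06, 2.43, 3.1 and 3.33.

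Of the 86 genes in the 8 milk lists, all 86 were well above background on the 4 arrays, 77 were in the brightest 25% of probes and 26 in the brightest 1%. Detected counts, here and for the other lists, stand beside 64.8% of all probes. That share is no like measure, as each listed gene counts through the brightest of its probes. The plot of signal ranks by gene list sets these beside the markers of cell types.

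**Figure D2:**
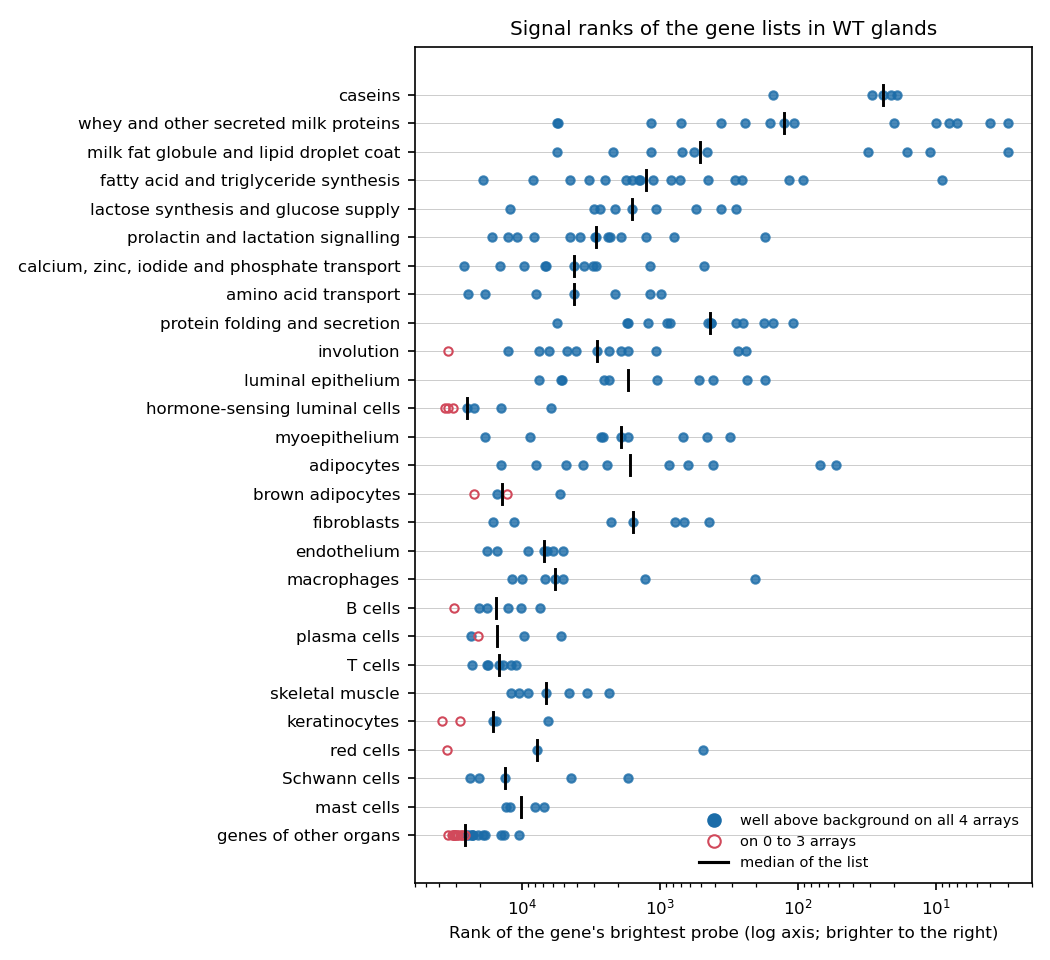
Rank of the brightest probe of each gene (log axis, brighter to the right) in 27 gene lists; filled points were well above background on all 4 WT arrays, open points on 0 to 3, and the bar is the median of the list. The casein list has a median rank of 24, and the list of genes of other organs one of 25999.

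The 10 genes of the milk fat globule and lipid droplet coat ranked from 3 to 5560, with a median of 509. Cidea had a scaled signal of 775 in WT 1, 373 in WT 2, 699 in WT 3 and 661 in WT 4, and Fabp3 had 757, 375, 577 and 554. In Plin2 the highest dam was WT 4 and not WT 1, with 437, 308, 450 and 476. Xdh, the xanthine oxidoreductase of the globule membrane, gave 48.2, 27.3, 63.5 and 62.6, and its partner Btn1a1, butyrophilin, 9.86, 6.25, 11.7 and 17.0. Btn1a1 had the largest SD of the list, 0.60. WT 2 was lowest for 9 of the 10 genes, and for 6 after quantile normalization. Counts of this kind are to be read against all probes, as WT 2 was lowest for 44.7% of the 26671 probes well above background on the 4 arrays, for 59.3% of the 9482 of these with a gene name, no saturated spot and a geometric mean of at least 1, and for 96 of the 100 brightest. After quantile normalization the first of these shares was 40.6% and the next 41.6%. The median deviation of the list from the mean of the dams was -0.50 in WT 2, against -0.11 over all probes well above background. After quantile normalization the list's deviation was -0.17.

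The genes of fatty acid and triglyceride synthesis had a larger median SD between the dams (0.58) than the caseins (0.37) and the whey and other secreted milk proteins (0.41). All 18 were well above background, with ranks from 9 for Fasn to 19097 for Gpam, a mitochondrial glycerol-phosphate acyltransferase. Fasn gave 828 in WT 1, 358 in WT 2, 749 in WT 3 and 732 in WT 4. Scd1, a fatty acid desaturase, gave 266, 117, 220 and 256, and Scd2 37.1, 9.23, 45.1 and 54.0. Thrsp, a lipogenic nuclear protein, gave 293, 137, 180 and 157, and Olah, the thioesterase that releases medium-chain fatty acids, 135, 74.5, 106 and 103. WT 2 was lowest for 16 of the 18 genes, and for 14 after quantile normalization, with a median deviation of -0.80 on the log2 scale, and of -0.50 after quantile normalization. The transcription factor gene Srebf1 was lowest in WT 2 too (60.5, 35.3, 94.7 and 73.6), as was the citrate carrier gene Slc25a1 (24.7, 8.51, 30.8 and 36.8). Dgat2, which makes the final step of triglyceride synthesis, differed from the rest of the list, with 3.74 in WT 1, 12.1 in WT 2, 29.1 in WT 3 and 61.6 in WT 4. Its SD of 1.74 was the largest of the list, and its order of the dams was that of several adipocyte genes given below. Dgat1, for the same reaction, gave 4.54, 3.65, 3.95 and 4.72, and Gpam 0.149, 0.162, 0.150 and 0.181. Without WT 2 the median SD of the list was 0.21, that of the caseins 0.24 and that of the whey and other secreted milk proteins 0.21, so the difference between these lists rested on that dam.

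Genes of lactose synthesis and glucose supply ranked from 281 to 12117. B4galt1, the galactosyltransferase that Lalba redirects, was the brightest and the most variable, with 87.3 in WT 1, 49.4 in WT 2, 134 in WT 3 and 136 in WT 4. Slc2a1, the glucose transporter GLUT1, gave 26.8, 15.2, 32.2 and 23.2. WT 2 was lowest for 8 of the 9 genes, and for 5 after quantile normalization. Slc35a2, the Golgi carrier of UDP-galactose, was the dimmest with 0.619, 0.574, 0.691 and 0.663.

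The 14 genes of prolactin and lactation signalling had a median rank of 2918.5. Elf5, an Ets factor of the secretory lineage, was the brightest at rank 174 and gave 172 in WT 1, 94.4 in WT 2, 162 in WT 3 and 153 in WT 4. The receptor gene Prlr ranked 3768, with 7.31, 3.17, 5.47 and 6.32. Jak2 ranked 8202, Stat5a 2361 and Stat5b 2944, and Stat5a gave 10.8, 6.09, 12.5 and 10.1. Of the Stat5 targets that restrain the pathway, Cish gave 19.1, 7.01, 10.5 and 14.7 and Socs2 0.75, 0.865, 0.906 and 0.811, so WT 2 was lowest for Cish but not for Socs2. Id2, an inhibitor of helix-loop-helix factors, had the largest SD, 0.74 with all dams and 0.335 without WT 3, with 39.9 in WT 3 against 12.8 to 19.9 in the others. Igf1r was the dimmest, with 0.266, 0.333, 0.199 and 0.242.

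Transport genes spanned a wide range of ranks. Among those of calcium, zinc, iodide and phosphate, the secretory pathway calcium pump gene Atp2c2 was brightest at 69.8, 42.8, 54.9 and 61.4, and Atp2b2, the pump of the apical membrane, gave 19.6, 12, 31.6 and 24.1, with the largest SD of 0.59, or 0.34 without WT 2. Casr, the calcium-sensing receptor, was the dimmest at 0.0497, 0.0346, 0.0532 and 0.0436. WT 2 was lowest for 9 of these 11 genes, and for 6 after quantile normalization. Among the amino acid carriers, Slc38a2 was brightest (26.0, 19.7, 29.5 and 26.8), Slc1a4 most variable (1.64, 0.811, 2.05 and 2.39) and Slc6a14 dimmest (0.0601, 0.0613, 0.0665 and 0.0631).

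The machinery of protein folding and secretion was bright. All 14 genes were in the brightest 25% and 5 in the brightest 1%, with a median rank of 436.5. Sec61b, a subunit of the channel into the endoplasmic reticulum, was brightest with 239 in WT 1, 135 in WT 2, 210 in WT 3 and 192 in WT 4. Its partner Sec61g gave 179, 92.3, 173 and 134, the largest SD of the list at 0.44, or 0.23 without WT 2. The chaperone gene Hspa5 gave 113, 68.1, 114 and 92.2. Pdia4, a protein disulfide isomerase, was the dimmest, with 3.38, 2.57, 3.28 and 2.65. The median SD of the list was 0.28, against 0.27 over all probes well above background on the 4 arrays, and 0.15 after quantile normalization. It was 0.17 without WT 2. WT 2 was lowest for all 14 genes, and for 6 after quantile normalization.

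Involution, the regression of the gland once milk removal stops, has its own list of genes, most of which were detected. Of 14 in the involution list, 12 were well above background on the 4 arrays. Lif could not be matched to a probe, and the cytokine gene Il6 was not well above background on any array. The lysosomal protease genes Ctsl (119, 83.7, 120 and 118) and Ctsb (105, 73.2, 113 and 109) were brightest. Igfbp5, which binds insulin-like growth factors, was most variable, with 3.11 in WT 1, 2.35 in WT 2, 5.39 in WT 3 and 13.3 in WT 4. Stat3 and Socs3, a transcription factor and its feedback inhibitor, were highest in WT 1, with 18.3 and 8.57 there and 7.45 to 12.7 and 2.04 to 5.27 in the other dams.

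Markers of the epithelium were bright in each gland, which checks the labeled tissue. All 10 luminal markers were well above background and in the brightest 25%. After Elf5 came the keratin gene Krt18 at 145, 81.7, 110 and 112 and its partner Krt8 at 90.6, 50.1, 59.0 and 75.1. Krt7 was the dimmest and most variable, with 2.15, 0.952, 1.95 and 2.66. WT 1 was highest for 8 of the 10 and WT 2 lowest for 8, and each for 6 after quantile normalization. Over all probes well above background on the 4 arrays WT 1 was highest for 34.2%, and over the 9482 named probes for 43.1%.

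Hormone-sensing luminal markers were dim. Of 7, 4 were well above background on the 4 arrays, and their median rank was 25044. Cited1, a transcriptional cofactor, was the brightest at 3.06, 1.74, 2.70 and 2.93. Esr1, the estrogen receptor, gave 0.374, 0.298, 0.426 and 0.629, and Wnt4 had the largest SD, with 0.0720, 0.0518, 0.132 and 0.149. Pgr, the progesterone receptor, was well above background on 1 array, and Areg, amphiregulin, on none.

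All 9 myoepithelial markers were detected. Acta2, smooth muscle actin, gave 93.6 in WT 1, 52.5 in WT 2, 92.2 in WT 3 and 122 in WT 4, and Krt14 gave 9.60, 5.72, 8.54 and 10.4. Krt5 had the largest SD, with 12.7, 6.52, 15.8 and 15.8. Oxtr, the oxytocin receptor, was the dimmest at 0.124, 0.131, 0.238 and 0.237. WT 2 was lowest for 8 of the 9 genes, and for 7 after quantile normalization, and the median deviation of WT 2 was -0.56, and -0.38 after quantile normalization.

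Several lists of markers of cells other than the epithelium differed more between the dams, among them those of T cells, B cells and skeletal muscle. The plot of list deviations by dam gives the median of each list in each gland.

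**Figure D3:**
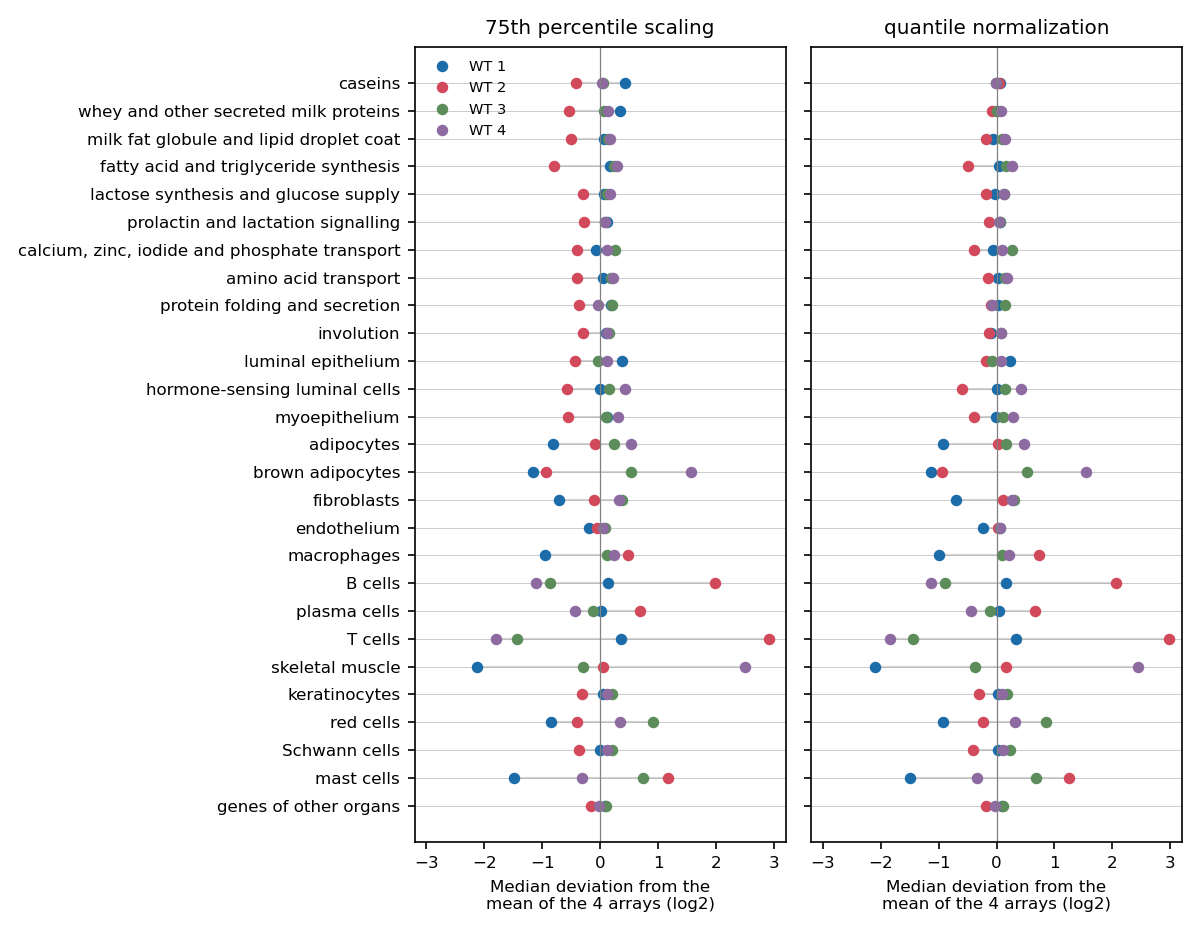
Median deviation of each list from the mean of the 4 WT arrays (log2), over members well above background on all 4, with 75th percentile scaling (left) and quantile normalization (right), 1 color for each dam. Milk lists lie within 1 log2 unit of the mean, whereas T cell, B cell and skeletal muscle lists reach 2.91 and 1.98 in WT 2 and 2.50 in WT 4 on the left.

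All 10 adipocyte markers were well above background, and WT 1 was lowest for 9 of them while WT 4 was highest for 9. After quantile normalization these counts were 10 and 7. Over all probes well above background on the 4 arrays WT 1 was lowest for 19.98% and WT 4 highest for 22.4%. Adipoq, adiponectin, gave 11.6 in WT 1, 38.6 in WT 2, 39.1 in WT 3 and 41.7 in WT 4. Plin1, the droplet coat of fat cells, gave 2.32, 6.05, 6.48 and 11.4. Retn, resistin, had the largest SD, 1.15 and 0.69 without WT 1, with 3.29, 7.79, 14.7 and 20. Fabp4 was the brightest at rank 53, with 321, 248, 329 and 376, and Lep, leptin, the dimmest with 0.216, 0.405, 0.587 and 0.497. The median SD of the list was 0.66, and 0.355 over slide 3 alone.

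The brown adipocyte list, of 4 genes, had its largest differences between the same dams. Ucp1, the uncoupling protein that defines brown and beige fat cells, had scaled signals of 0.0264 in WT 1, 0.0409 in WT 2, 6.2 in WT 3 and 12.1 in WT 4, and was well above background on 3 arrays. Cox8b, a respiratory chain subunit of brown fat and muscle, gave 0.772, 1.51, 5.36 and 15.8. Elovl3, a fatty acid elongase, gave 0.0172, 0.0306, 0.266 and 0.549, also well above background on 3 arrays. WT 1 and WT 2 were low and WT 3 and WT 4 high for all 3. Cpt1b, which is shared with muscle, gave 0.279, 0.193, 0.419 and 0.595.

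Of the connective tissue, all 7 fibroblast markers and all 7 endothelial markers were detected. The fibroblast gene Dcn, decorin, was brightest and lowest in WT 1, with 38.0 against 72.5 to 77.1 in the other dams. Lum, lumican, was most variable, with 5.74, 9.43, 16.5 and 11.6, and Fbln1 the dimmest. The median deviation of the fibroblast list in WT 1 was -0.71, and -0.70 after quantile normalization. Endothelial markers had a median SD of 0.35, which was 0.16 without WT 1 and 0.15 with the mean over the probes of each gene. Emcn was the brightest (3.74, 2.85, 3.75 and 3.59), Tek the dimmest (0.133, 0.225, 0.232 and 0.221) and Pecam1 the most variable (0.251, 0.633, 0.314 and 0.269).

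The T cell list had the largest median SD of the 27 lists with all 4 dams. It did not without WT 2 or without WT 3, when that of skeletal muscle was larger, at 2.43 each time. Without WT 3 the T cell list had 2.38. The receptor subunit gene Cd3d gave 1.24 in WT 1, 6.76 in WT 2, 0.246 in WT 3 and 0.216 in WT 4. Ccr7, the receptor that guides T cells into lymph nodes, gave 0.317, 2.34, 0.0507 and 0.0441. Lck, the receptor kinase, gave 0.830, 5.03, 0.222 and 0.185. In each the dams ran in the order WT 2, WT 1, WT 3 and WT 4, and WT 2 was highest for all 7 T cell genes, or 6 after quantile normalization, against 21.5% of all detected probes. Cd4 and Cd3e were exceptions in size by their brightest probes. That of Cd4 gave 0.0866, 0.0876, 0.0733 and 0.0770. The other Cd4 probe, well above background on 1 array, gave 0.0148, 0.0632, 0.0234 and 0.0110. The brightest probe of Cd3e, a receptor subunit gene, gave 0.164, 0.280, 0.226 and 0.174, with WT 1 lowest and an SD of 0.36. The median SD of the list was 2.20 on the log2 scale, and 1.18 without WT 2, against 0.27 over all probes.

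WT 2 was also highest for 4 of the 5 B cell genes and 2 of the 3 plasma cell genes that were well above background on the 4 arrays. Cd79b, a subunit of the B cell receptor, gave 3.69, 24.3, 0.480 and 0.265, the order of the T cell genes. Ms4a1, which encodes CD20, gave 0.714, 4.06, 0.169 and 0.222. Jchain, which joins secreted immunoglobulins, instead gave 0.305 in WT 1, 29.4 in WT 2, 6.99 in WT 3 and 1.81 in WT 4, so that WT 1 was the lowest. Blk, the dimmest of the B cell list, was well above background on 1 array, and Prdm1 was the dimmest of the plasma cell list with 0.0779, 0.125, 0.0641 and 0.0575. Cr2 did not share the pattern, with 0.212, 0.181, 0.203 and 0.177. The median deviation of the B cell list in WT 2 was 1.98, and 2.06 after quantile normalization, and the median SD of 1.4 was 0.58 without that dam.

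Macrophage markers were lowest in WT 1. Lyz2, lysozyme, gave 71.4 in WT 1, 174 in WT 2, 149 in WT 3 and 128 in WT 4, and Cd68, the dimmest and most variable, 0.274, 1.29, 0.706 and 0.786. WT 1 was lowest for 6 of the 7 genes, against 19.98% of all detected probes, with Cd14 (22.4, 15.8, 15 and 23.7) as the other. The mast cell protease genes showed a like split, as Cma1 gave 0.646, 4.33, 3.81 and 1.69 and Cpa3 0.166, 1.54, 1.18 and 0.497, whereas Kit, also expressed in epithelium, gave 0.446, 0.330, 0.472 and 1.00. The median SD of the macrophage list was 0.68, and 0.29 over slide 3 alone.

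Skeletal muscle genes were detected in every gland, lowest in WT 1 and highest in WT 4. Myh4, a fast myosin, gave 0.817 in WT 1, 23.2 in WT 2, 7.80 in WT 3 and 57.9 in WT 4. Ckm, muscle creatine kinase, gave 0.0834, 1.27, 0.421 and 4.03, and Acta1, skeletal actin, 1.91, 6.27, 4.78 and 25.6. WT 4 was highest and WT 1 lowest for all 7 genes of the list, against 22.4% and 19.98% of all detected probes, with a median SD of 1.99, and of 1.06 without WT 4.

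The remaining cell type lists were small or dim. The globin gene Hba-a1 gave 27.9, 42.7, 113 and 73.0, with Alas2 in the same order and Hbb-b1 not matched to a probe. Of the keratinocyte genes, Krt10 was the brightest (2.47, 1.86, 2.74 and 2.57), Lor the most variable (0.395, 0.282, 0.287 and 0.184) and Flg was not well above background on any array. Sox10, a Schwann cell marker also found in mammary epithelium, gave 15.4, 8.80, 17.7 and 15.4. The lists of muscle, lymphocytes and fat cells move between dams beside the milk lists, and their part in the values of the milk genes was not tested.

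A list of 23 genes of other organs shows what the detection flag passes in this tissue. None was in the brightest 25%, but 12 were well above background on all 4 arrays, 10 on 1 to 3 and 1 on none. The sperm gene Tnp1 was the brightest, with 1.02, 0.645, 1.05 and 0.963. Alb, serum albumin of the liver, was the most variable, with 1.34, 0.279, 0.203 and 0.4, and Gh, growth hormone, the dimmest. A probe well above background is thus no proof of a gene in use, and dim members of any list are to be read with that in view.

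Over the 26671 probes well above background on all 4 arrays, the median SD between dams was 0.27 on the log2 scale, and 10% of the probes passed 0.62. For 173 probes printed 10 times and well above background throughout, the median SD was 0.08 between spots of 1 array and 0.34 between dams. Each dam has an array of its own, so the second value also holds differences between arrays and slides. The plot of spread by signal rank shows where the scaling matters. For the 30 brightest probes the median SD between dams was 0.37 with the 75th percentile, 0.08 without scaling and 0.05 with quantile normalization. Between ranks 10001 and 15000 the 3 values were 0.26, 0.44 and 0.26.

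**Figure D4:**
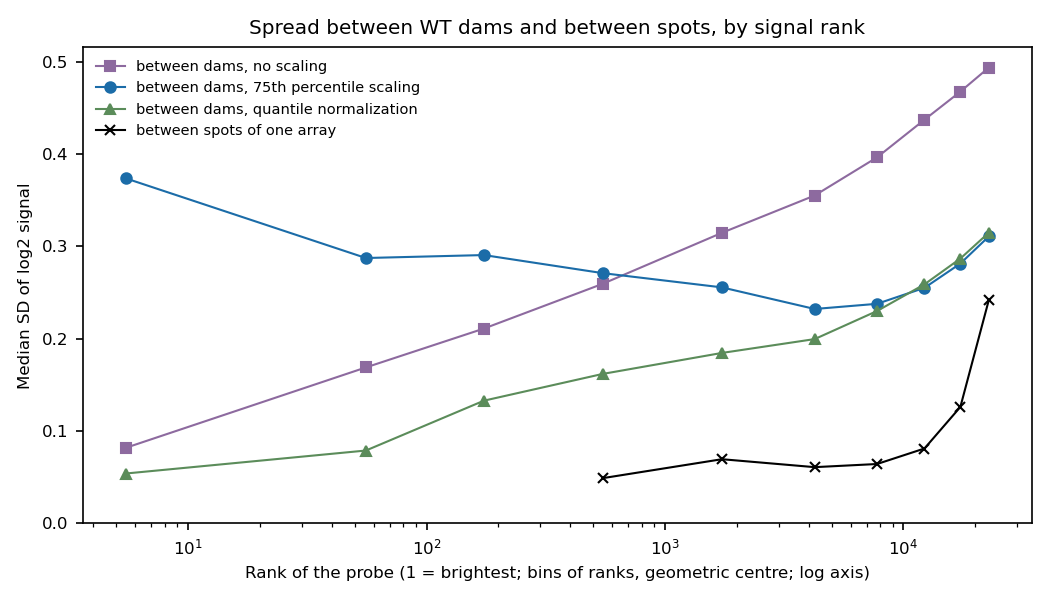
Median SD of log2 signal over the 4 WT dams, by bins of signal rank (log axis), for 3 ways to scale the arrays, and between the 10 spots of replicated probes on one array (crosses, bins with at least 5 such probes). The SD with 75th percentile scaling is highest for the 30 brightest probes at 0.37, where quantile normalization gives 0.05.

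Among the 9482 probes well above background on the 4 arrays with a gene name, no saturated spot and a geometric mean over the dams of at least 1, the 12 of largest SD were those of Ighg, Iglv1 (3 probes), Igh-VJ558 (2 probes), Jchain, Cd79b, the chemokine Ccl19, the macrophage receptor Marco and the fast muscle genes Mybpc2 and Tnnc2. Ighg, an immunoglobulin heavy chain, gave 0.110 in WT 1, 37.3 in WT 2, 3.04 in WT 3 and 0.340 in WT 4. Iglv1, a light chain, gave 1.44, 89.2, 30.1 and 1.82 on its brightest probe, and Ccl19, a chemokine of lymph nodes, 4.68, 25.4, 0.579 and 0.329. Marco gave 4.30, 76.2, 3.1 and 0.666. In these lymphoid and macrophage genes WT 2 was highest. Immunoglobulin gene segments are much alike, so which segment a probe measures is uncertain. Mybpc2 gave 0.0932, 2.62, 1.03 and 8.73 and Tnnc2 0.685, 18.0, 8.88 and 62.1, with WT 4 highest. The same 12 probes varied most after quantile normalization.

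Of the 100 most variable probes, 62 were highest in WT 2, 32 in WT 4, 6 in WT 3 and 0 in WT 1, and these counts did not change after quantile normalization. Some of them reached a geometric mean of 1 only through the dam in which they were high, as a probe of Myh2, a fast myosin, with 0.243, 0.865, 0.892 and 7.68, so the counts describe these probes and are not set against all probes. The 100 held all 12 immunoglobulin and Jchain probes and 7 of the 8 skeletal muscle list probes among the 9482. Those highest in WT 4 also held Dgat2, Scd2, Retn, Cox8b and probes of the major urinary protein genes Mup1 and Mup4. Those highest in WT 3 were Rnase1, Fkbp11, Cxcl17, S100a9, Mfsd2a and Defb1. No casein or other secreted milk protein gene was among the 100.

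**Figure D5:**
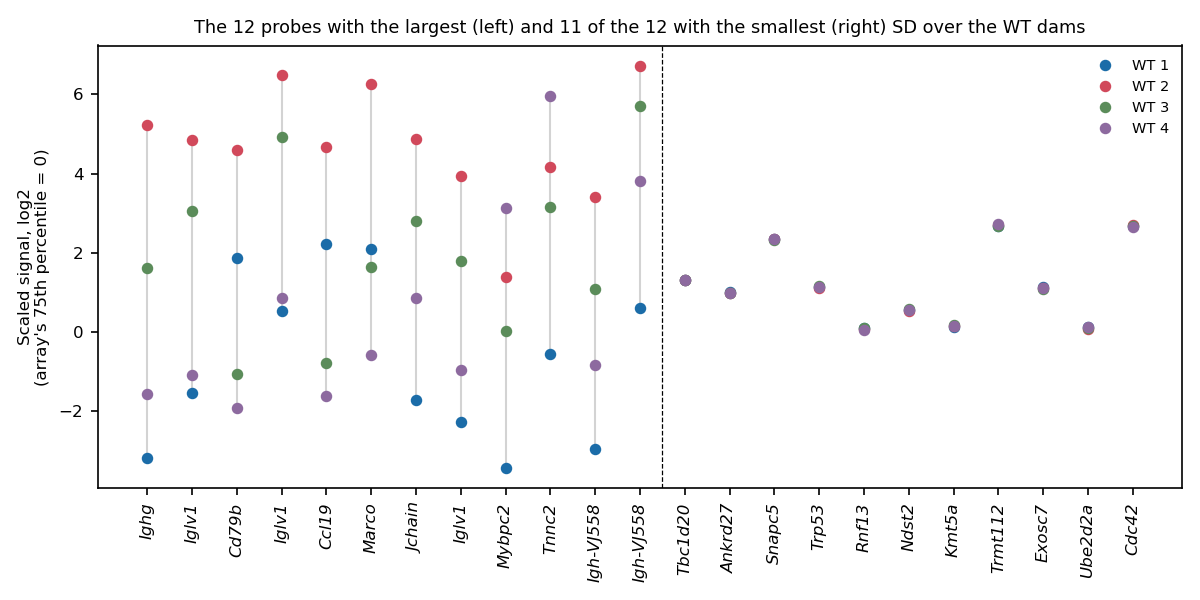
Log2 scaled signal of each WT dam (colors) for the 12 probes with the largest SD over the dams (left of the dashed line) and 11 of the 12 with the smallest (right), 1 column for each probe. WT 2 is the highest point in the immunoglobulin, Cd79b, Ccl19, Marco and Jchain columns and WT 4 in Mybpc2 and Tnnc2, while the points right of the dashed line coincide.

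The 12 probes of smallest SD included those of Tbc1d20, Ankrd27, Snapc5, Trp53, Rnf13, Ndst2, Kmt5a, Trmt112, Exosc7, Ube2d2a and Cdc42, genes of membrane traffic, RNA handling, ubiquitination and other general functions. Tbc1d20, a GTPase-activating protein of Rab1, gave 2.49 in WT 1, 2.48 in WT 2, 2.50 in WT 3 and 2.51 in WT 4, and Cdc42, a small GTPase, 6.41, 6.56, 6.36 and 6.33. Their highest over lowest dam was at most 1.04. With quantile normalization 1 of the 12 was again among the 12 of smallest SD.

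Probes of one gene differed more than dams did. Over 5978 genes with at least 2 probes well above background on all 4 arrays, the median SD of the mean log2 signals of a gene's probes was 1.5, against a median of 0.26 between dams, and the probes of 57.2% of the genes spanned over 4-fold. Hk1, the hexokinase with 6 probes, ranked 2112 by its brightest probe and 30436 by its dimmest, which was not well above background on any array. The 5 probes of Ghr, the growth hormone receptor, ranked from 2305 to 16370, and the 4 of Acaca, acetyl-CoA carboxylase, from 2489 to 14890. Within Acaca, WT 2 was lowest on each of the 4 probes, and within Ghr WT 3 or WT 4 was highest on each of the 5. Bright milk genes differed in this too. The 2 probes of Fasn ranked 9 and 1156, the dimmer with 29.2 in WT 1, 9.82 in WT 2, 26.9 in WT 3 and 26.4 in WT 4, and those of Csn1s2b 29 and 8058. For Wap, by contrast, the 2 probes ranked 8 and 13, and those of Wfdc18 4 and 15.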

How the data were processed

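Gene expression in mammary gland number 4 was measured in 4 WT dams on L2, with 1 array per dam. The authors deposited the background-subtracted intensity of each feature, with the arrays left unscaled. The software was Feature Extraction, 9.5.3.1 per the file headers and 9.5 in the submitters' processing notes. A high and a low gain scan were combined by that software. The deposited series table held the same values, with a largest difference of 0. Arrays have no read depth, and their number limits the precision.

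Of 45018 features per array, 1639 controls were left out, the 245 probes printed 10 times were averaged, and each array was divided by its 75th percentile. Ranks follow the mean log2 value. Errors are SDs over the 4 dams, no groups were compared, and Dixon's criterion for an outlier was applied to 189 results. Python 3.11.15, pandas 2.3.3, numpy 2.4.6 and, for normexp, limma 3.58.1 in R 4.3.3 were used, and the functions were tested on simulated data. Probes were named through RefSeq (GRCm38.p6) for 22951 of 41174 by accession, for 6659 by symbol and for 3109 by synonym, and otherwise as on the array. The 27 gene lists hold 239 genes, 237 of them matched, each through its brightest probe.

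The lists and the choice of samples were made with earlier results of these data known. The genes named are the 50 brightest probes, all casein and other secreted milk protein genes, the brightest, dimmest and most variable member of every other list, the 12 most and 12 least variable probes, all probes of the 3 milk genes with most probes (ties in alphabetical order), and undetected members of lists mostly detected. The values of some genes that this rule names are not reported here. Other members and neighbors were named after their values were seen. Alternatives were median scaling, no scaling, the percentile over detected probes, quantile normalization, normexp with an offset of 50 followed by quantile normalization, outlier flags or saturated probes left out, another detection flag, the median over spots, the mean over a gene's probes, the series table, slide 3 alone and each dam left out.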

Additional observations from a re-analysis of the deposited data

Results flagged for a closer look

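Of 189 results examined, 12 (6.35%) had 1 dam far from the other 3, where chance gives about 1 in 20. The value given is the gap of that dam to its nearest neighbor as a share of the range of the 4 dams, and it passed Dixon's 95% critical value for 4 samples. WT 2 was the lowest for Fasn (0.853), Ctsl (0.951) and Emcn (0.835), and for the median deviation of the lists of the milk fat globule and lipid droplet coat (0.848), of fatty acid and triglyceride synthesis (0.885), of prolactin and lactation signalling (0.902) and of involution (0.892). WT 2 was the highest for Il6 (0.861), which was not well above background. WT 1 was the lowest for Dcn (0.913), Tek (0.912) and Pnlip (0.871), a pancreatic gene that was not well above background on any array. WT 3 was the lowest for 1 probe of Hk1 (0.854). These flags use values scaled to the 75th percentile, and WT 2 had the highest 75th percentile.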

How the results depend on the processing

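The share of probes well above background on all 4 arrays (64.8%) became 79.2% with the flag for a positive and significant signal, and lay between 64.9% and 67.0% with 1 dam left out. The 100 brightest probes held 23.2% to 24.9% of the signal under every alternative tried with all dams or slide 3 alone, and the milk genes in the brightest 1% numbered 21 to 28 against 26. The spread between dams depended on scaling. Its median over detected probes (0.27) was 0.42 without scaling, 0.19 with normexp and 0.20 to 0.28 with 1 dam left out. For the caseins (0.37) it was 0.10 without scaling, 0.067 with quantile normalization, 0.076 with normexp and 0.24 to 0.45 with 1 dam left out. For whey and other secreted milk proteins (0.41) it was 0.14 without scaling, 0.14 with quantile normalization, 0.16 with normexp and 0.21 to 0.50 with 1 dam left out, the lowest of both without WT 2. Values with 1 dam left out ran from 0.21 to 0.67 for fatty acid and triglyceride synthesis, 0.355 to 0.77 for adipocytes, 0.29 to 0.82 for macrophages, 0.58 to 1.72 for B cells, 1.18 to 2.68 for T cells and 1.06 to 2.43 for skeletal muscle, the lowest without WT 2, WT 1, WT 1, WT 2, WT 2 and WT 4. Slide 3 alone, which is the same as leaving out WT 1, gave 0.355 for adipocytes and 0.29 for macrophages, and macrophages without scaling gave 1.07. The ranks of the 160 named probes moved by more than their SD over the arrays for 49 with normexp, 34 of the remaining 153 with saturated probes left out, 2 with quantile normalization, 6 with slide 3 alone and 4 to 7 with 1 dam left out. No paired analysis was possible because 1 group is described. The causes were not tested. What 4 glands on 2 slides limit is the estimate of every SD, and saturation limits the order of the probes at ranks 1 to 8.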
